A study of Oryza sativa and Arabidopsis thaliana with 24 samples.

Results

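The neighbouring plastid tRNA genes trnE, trnY and trnD, which encode the tRNAs for glutamate (anticodon TTC), tyrosine (GTA) and aspartate (GTC), were followed across Arabidopsis and rice. They were chosen by their plastid position and their tRNA identifiers: at_tR80 (trnE), at_tR219 (trnY) and at_tR48 (trnD) in Arabidopsis, and os_tR102 (trnE), os_tR277 (trnY) and os_tR55 (trnD) in rice. These are 6 of the 531 tRNA identifiers in the tables, which hold 232 in Arabidopsis (30 plastid) and 299 in rice (25 plastid). The rule itself uses no measured value, although earlier results of these data were known when the cluster was picked.

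The study sequenced tRNAs and tRNA-derived fragments (tRFs, shorter RNAs cut from a tRNA) in 24 libraries, with 2 biological replicates per group according to its design text. Arabidopsis thaliana plants, grown in soil at 23 °C with 16 h of light and 8 h of darkness, gave flower, silique (the seed pod), rosette leaf, stem leaf (leaves taken from the stem) and stem. Rice (Oryza sativa) seedlings, grown in Yoshida's nutrient solution at 28 °C with 14 h of light and 10 h of darkness, gave root and shoot after cold (8 h at 4 °C in continuous light), after salt (8 h in 300 mM NaCl) and without stress, and rice also gave panicle. All RNA was total RNA pretreated with a kit for tRF sequencing, and the sources used here name no cultivar, ecotype or plant age. Values are scaled reads (RPM), given as mean ± SD over the 2 libraries of a group. The p-values measure only the spread between these libraries.

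Plastid tRNAs serve protein synthesis inside the chloroplast. The glutamyl-tRNA made from trnE has a further role, since glutamyl-tRNA reductase uses it to begin the synthesis of chlorophyll and heme. The trnE, trnY and trnD genes are described as a single transcription unit, and in Arabidopsis its transcription depends on the sigma factor SIG2. Fragments of a tRNA fall into those that keep its 5′ end and those that keep its 3′ end with the added CCA. The authors class the shorter ones as tRF-5 and tRF-3 and use other names for those cut at the anticodon loop.

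The mature tRNAs are shown because the fragments below are named by their first and last base in them. Positions count from 1 at the 5′ end, capitals mark the anticodon (bases 35 to 37 in each) and the base at which the species differ, and CCA is included at the 3′ end. Arabidopsis and rice differ by C6T in trnE and by G47A in trnY (Arabidopsis base first), and trnD is identical.
at_tR80 trnE Arabidopsis: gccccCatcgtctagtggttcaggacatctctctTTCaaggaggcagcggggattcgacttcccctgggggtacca
os_tR102 trnE rice: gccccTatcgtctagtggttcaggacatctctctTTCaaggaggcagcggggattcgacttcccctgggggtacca
at_tR219 trnY Arabidopsis: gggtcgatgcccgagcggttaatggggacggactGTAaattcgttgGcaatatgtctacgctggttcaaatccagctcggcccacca
os_tR277 trnY rice: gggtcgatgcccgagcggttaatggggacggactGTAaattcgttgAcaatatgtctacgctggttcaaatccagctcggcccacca
at_tR48 and os_tR55 trnD: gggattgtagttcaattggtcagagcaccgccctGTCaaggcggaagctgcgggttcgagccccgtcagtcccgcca

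The Arabidopsis genes lie on the minus strand of the plastid genome in the authors' table, and their sequences match those positions of the TAIR10 reference. They are trnE at 30466 to 30538, trnY at 30323 to 30406 and trnD at 29801 to 29874, so 59 bases separate trnE from trnY and 448 separate trnY from trnD. In rice they lie on the plus strand at 15650 to 15722, 15784 to 15867 and 16231 to 16304, with 61 and 363 bases between them. The rice positions are those of the authors' table, for which the sources used here give no build. The members in rice also have identical nuclear copies in that table: 4 of trnE (on chromosomes 10, 1, 2 and 4), 2 of trnY (10 and 1) and 2 of trnD (2 and 4). Plastid and nuclear transcripts of these 3 sequences cannot be told apart in rice, while each Arabidopsis member has a plastid locus only.

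The fragments that carry most of the results are shown next, with any anticodon base they keep in capitals. For trnE and trnY of Arabidopsis these are 3′ fragments, and for trnD of both species 5′ fragments.
trnE 46 to 76: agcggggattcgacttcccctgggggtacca
trnE 37 to 76: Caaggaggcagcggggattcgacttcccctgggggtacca
trnY 52 to 87: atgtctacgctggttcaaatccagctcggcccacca
trnY 53 to 87: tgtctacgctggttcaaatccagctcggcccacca
trnD 1 to 33: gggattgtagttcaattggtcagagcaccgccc
trnD 1 to 36: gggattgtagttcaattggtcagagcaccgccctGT
trnD 1 to 37: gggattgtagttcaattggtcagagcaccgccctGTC
The trnD fragments 1 to 36 and 1 to 37 differ by their last base, which is the last base of the anticodon. Listed fragments were 17 to 40 bases long, so trnE 37 to 76 sits at the upper limit of the listing and longer 3′ fragments could not be seen.

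The 3 genes were followed in tables of reads per tRNA (tRNA signal), of fragment reads summed per tRNA (tRF totals) and of single fragment sequences. Depth per library was 19741 to 232097 reads for tRNA signal and 259630 to 1536470 for fragments in Arabidopsis, and 20674 to 150441 and 130822 to 880814 in rice. As a check on the tissue labels, the plastid part of the tRNA signal was 33.6% in flower, 32.2% in silique, 71.3% in rosette leaf, 71.4% in stem leaf and 47.8% in stem. In rice it was 3.43% to 11.1% in root, 19.4% in panicle and 42.0% to 49.8% in shoot. The tRNA signal summed over all tRNAs differed between groups, with 849094 RPM in silique and 166037 RPM in leaves of the rosette, and at 181603 RPM in panicle against 45520 RPM in salt-treated shoot. For that reason orders and folds in tRNA signal are those in RPM unless a share is named, and shares of the table total are given beside the main ones. In bulk tissue, fewer plastids or cells of a type and less RNA per cell cannot be told apart.

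In Arabidopsis the neighbours did not move together. The trnE tRNA peaked in silique, both in RPM and as a share of the table total. The trnD tRNA was highest in silique in RPM and in rosette leaf as a share, and the trnY tRNA was highest in stem leaf in RPM and in rosette leaf as a share. By mean tRNA signal over all 10 libraries trnE ranked 4 of 211 tRNAs with signal, trnD 7 and trnY 38. By tRF totals trnD ranked 4 of 232 and was the highest plastid tRNA, while trnY ranked 27 and trnE 31.

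The tRNA signal of trnE, the tRNA that also feeds chlorophyll synthesis, was 9913 and 10078 RPM in the flower libraries, 75601 and 75600 RPM in silique, 4725 and 5251 RPM in leaves of the rosette, 14715 and 14737 RPM in stem leaf, with 12829 and 10946 RPM in stem. Silique stood apart from every other tissue and no 2 tissues overlapped. The silique value rested on 1755 and 2638 reads. Silique was 15.2-fold above rosette leaf and 7.56-fold above flower. As a share of each library's tRNA signal the excess was 2.97-fold over rosette leaf and 2.87-fold over flower, and on that scale flower and rosette leaf overlapped. Within the plastid tRNAs alone, trnE took 27.6 ± 0.363% of the signal in silique, 9.23 ± 0.249% in flower, 6.20% in stem leaf, 4.88% in stem and 4.21 ± 0.121% in rosette leaf. These shares differed between tissues (exact permutation over 945 partitions of the libraries, two-sided, p = 0.00106, the smallest it can give, adjusted p = 0.00148).

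The trnY tRNA signal was 2317 and 2341 RPM in flower, 1249 and 1118 RPM in silique, 2308 and 2040 RPM in leaves of the rosette, 3442 and 3563 RPM in stem leaf, with 1754 and 2058 RPM in stem. In RPM stem leaf was highest and silique lowest, and rosette leaf and stem overlapped. The trnY value in silique rested on only 29 and 39 reads. As a share of the table total trnY took 0.723% in flower, 0.139% in silique, 1.31% in rosette leaf, 1.05% in stem leaf and 0.375% in stem, so rosette leaf was highest on that scale and silique was again lowest, with no overlap. The trnD tRNA signal was 9232 and 9718 RPM in flower, 29680 and 27713 RPM in silique, 22843 and 24016 RPM in leaves of the rosette, 13620 and 13987 RPM in stem leaf, with 8194 and 5920 RPM in stem. In RPM silique and rosette leaf were the highest tissues and stem the lowest, with no overlap between tissues. As a share of the table total trnD took 2.94% in flower, 3.38% in silique, 14.1% in rosette leaf, 4.15% in stem leaf and 1.39% in stem, so silique was 1.22-fold above rosette leaf in RPM and 4.18-fold below it as a share. Of the plastid signal, trnD took 8.75% in flower, 10.5% in silique, 19.8% in rosette leaf, 5.81% in stem leaf and 2.90% in stem, and trnY between 0.433% in silique and 2.15% in flower (adjusted p = 0.00148 for both members by the same exact permutation). The 3 genes together made up 20.1 ± 0.338% of the plastid tRNA signal in flower, 38.55 ± 1.05% in silique, 25.9 ± 0.329% in rosette leaf, 13.5 ± 0.182% in stem leaf and 8.56 ± 1.01% in stem.

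The tRF totals had another order. Fragments of trnE were 2969 and 2804 RPM in flower, 16674 and 14163 RPM in silique, 5672 and 5481 RPM in leaves of the rosette, 6186 and 5978 RPM in stem leaf, with 3933 and 4175 RPM in stem, so silique was again highest, 2.76-fold above rosette leaf. Fragments of trnY were 2216 and 2223 RPM in flower, 1342 and 1417 RPM in silique, 11288 and 11229 RPM in leaves of the rosette, 17436 and 16592 RPM in stem leaf, with 5238 and 5302 RPM in stem. Silique was lowest, 8.16-fold below rosette leaf. Fragments of trnD were 16157 and 16129 RPM in flower, 12577 and 12507 RPM in silique, 78841 and 76412 RPM in leaves of the rosette, 43933 and 44072 RPM in stem leaf, with 16870 and 16688 RPM in stem. For trnD too silique was lowest, 6.19-fold below rosette leaf. The trnD tRNA signal was highest there in RPM but not as a share of the table total.

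**Figure D1:**
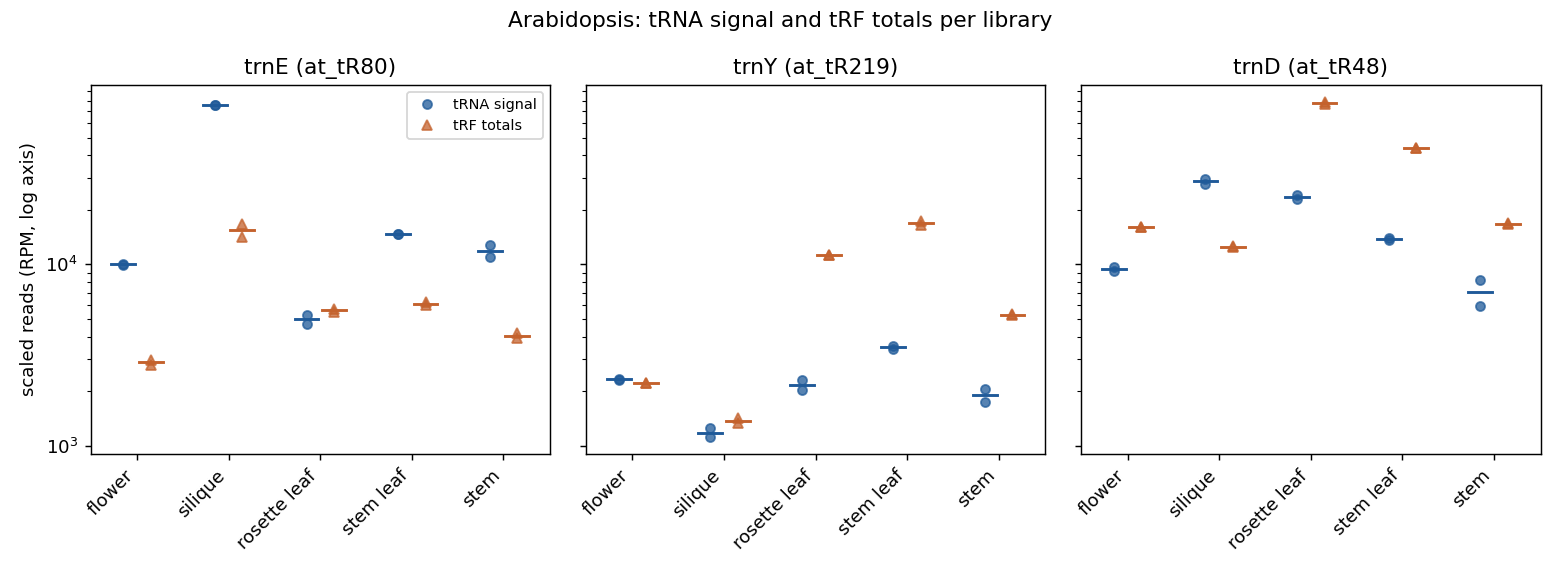
Scaled reads (RPM, log axis) of trnE, trnY and trnD in each Arabidopsis library, with tRNA signal as circles, tRF totals as triangles and the mean of the 2 libraries as a bar. The trnE tRNA signal reaches 75601 RPM in silique, while fragments of trnY and trnD are lowest there (1380 and 12542 RPM).

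In the fit across all tRNAs (limma on log2(RPM + 1), Benjamini-Hochberg adjusted p under 0.05, two-sided), all 3 members differed among the 5 tissues at the level of the tRNA signal, where 63% of all tested tRNAs did, and of the tRF totals, where 94.2% did. Flower and silique together were set against rosette leaf, stem leaf and stem. In tRNA signal trnE was higher by 1.53 on the log2 scale (SE 0.0517, limma adjusted p = 3.48e-08) and trnY lower (log2 fold -0.55, SE 0.0744, adjusted p = 0.000199), or 0.74 and -1.34 as shares of the table total, both still called. The trnD log2 fold was 0.33 (SE 0.0827, limma adjusted p = 0.00809), but it was -0.45 as a share of the table total. Without flower library 2 it was 0.31 and the call was lost (limma adjusted p = 0.0584). So 2 of 3 members were called higher and 1 lower, beside 62% of 200 tested tRNAs called (53.5% higher, 8.5% lower). All tRNAs had a median log2 fold of 1.499, or 0.87 as shares of the table, where 76 tRNAs were higher and 28 lower, against 107 and 17 in RPM. In tRF totals trnE was higher (0.37, SE 0.0426, limma adjusted p = 1.92e-06), and trnY (-2.52, SE 0.0300, adjusted p = 2.18e-17) and trnD (-1.44, SE 0.0137, adjusted p = 1.8e-18) were lower. There 77% of tRNAs were called (53.5% higher, 23.5% lower). For trnE flower and silique were unlike, and flower alone did not exceed all vegetative tissues. Its flower tRNA signal (9996 RPM) lay below stem leaf (14726 RPM) and stem (11888 RPM) and above rosette leaf (4988 RPM). Its flower tRF total (2887 RPM) was the lowest of the 5 tissues.

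Among the other 27 plastid tRNAs of Arabidopsis, 4 were higher and 14 lower in flower and silique in tRNA signal, with a median log2 fold of -1.02. In tRF totals none of these 27 was higher and 25 were lower (median -1.002, against 0.53 over all tRNAs). The log2 difference between tRF total and tRNA signal, a within-library ratio of tables that were scaled separately, was -2.30 ± 0.166 for trnE in silique and 0.16 ± 0.142 in rosette leaf, -1.19 ± 0.0643 and 1.73 ± 0.0830 for trnD, and 0.22 ± 0.169 and 2.37 ± 0.120 for trnY. The median over all tRNAs was 0.85 in silique and 3.03 in rosette leaf. Every Arabidopsis library had the same tRF table total, while the tRNA table total differed between tissues, so these ratios depend on the scaling. As shares of the table totals, silique was 2.97-fold of rosette leaf in tRNA signal and 2.76-fold in tRF totals for trnE. The same folds were 0.106 and 0.123 for trnY and 0.239 and 0.162 for trnD. By these means the trnE and trnD gaps shrank, and the trnY direction turned. In RPM all 3 ratios differed among tissues, as did those of 62.6% of tested tRNAs.

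The single fragments show which pieces of each tRNA made up these totals. Of the listed fragments that matched a member without mismatch, trnE had 37 and trnY 36, all from the 3′ end, and trnD had 30, of which 24 were from the 5′ end and 6 from the 3′ end. No trnE or trnY fragment and 6 trnD fragments also occurred in another tRNA identifier. The 5′ fragments made up 99.7% or more of the listed trnD reads in every library. The listed fragments covered 92.3% to 97.5% of the trnD total and 56.8% to 94.2% of the trnY total. For trnE they covered 26.7% to 34.2% in silique and 83.4% to 87.0% in rosette leaf, so most silique fragments of trnE are not described by the sequences below.

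The trnE fragment 46 to 76 was 581 and 684 RPM in flower, 3614 and 3794 RPM in silique, 178 and 210 RPM in leaves of the rosette, 716 ± 6.07 RPM in stem leaf, with 746 ± 119 RPM in stem. The longer fragment 37 to 76, which starts at the last base of the anticodon, was 531 ± 46.1 RPM in flower, 29.9 and 66.7 RPM in silique, 2395 and 2367 RPM in leaves of the rosette, 1578 ± 29.3 RPM in stem leaf, with 390 ± 9.61 RPM in stem. The pair changed places between silique and rosette leaf, with no overlap between the libraries of those tissues. In silique 46 to 76 was 19.1-fold above rosette leaf and 37 to 76 was 49.3-fold below it. The silique values of 37 to 76 rested on few reads, since 1 read was worth 3.74 and 2.38 RPM in these libraries. In flower and silique against the vegetative tissues 46 to 76 was higher (log2 fold 1.70, SE 0.0950, limma adjusted p = 4.6e-07) and 37 to 76 lower (-2.87, SE 0.184, adjusted p = 1.34e-06). The flower mean of 46 to 76, at 632 RPM, lay above rosette leaf but below stem leaf and stem. The fragment 38 to 76 was 109 ± 3.30 RPM in flower, 185.7 ± 40.6 RPM in silique, 410.0 ± 51.5 RPM in leaves of the rosette, 737 ± 33.8 RPM in stem leaf, with 355 ± 22.6 RPM in stem, and it was lower in flower and silique (log2 fold -1.74, SE 0.134, limma adjusted p = 5.96e-06). Start 46 took 38.8 ± 3.48% of the listed trnE 3′ reads in flower, 87.1% in silique, 4.43 ± 0.226% in rosette leaf, 20.5% in stem leaf and 44.0 ± 4.05% in stem.

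The most abundant trnY fragment, 52 to 87, was 322 ± 38.1 RPM in flower, 124 ± 33.1 RPM in silique, 5200 ± 202 RPM in leaves of the rosette, 11465 ± 356 RPM in stem leaf, with 3110 ± 2.45 RPM in stem. It was 41.8-fold lower in silique than in rosette leaf, and lower in flower and silique than in the vegetative tissues (log2 fold -4.84, SE 0.0979, limma adjusted p = 1.01e-10). The fragment 53 to 87, a base shorter, was 461 RPM in flower, 147 RPM in silique, 1713 RPM in leaves of the rosette, 1254 RPM in stem leaf, with 248 RPM in stem, and it outnumbered 52 to 87 in flower. In silique the libraries of the pair overlapped, and elsewhere 52 to 87 led. A base longer, 51 to 87 was 199 ± 17.8 RPM in flower, 21.8 ± 9.64 RPM in silique, 875 ± 31.0 RPM in leaves of the rosette, 526 ± 39.4 RPM in stem leaf, with 67.3 ± 29.8 RPM in stem (log2 fold -2.24, SE 0.236, limma adjusted p = 7.52e-05). The longest listed one, 48 to 87, averaged at most 246 RPM (rosette leaf), and its call (-2.03, SE 0.619, limma adjusted p = 0.0451) was lost in 8 of the fits without a library. Start 52 took 18.1% of the listed trnY reads in flower, 17.6% in silique, 50.0% in rosette leaf, 76.0% in stem leaf and 74.9% in stem. In silique, starts 49 and 68 took 25.5 ± 4.89% and 22.4 ± 6.42%, on 204 to 397 listed reads per library.

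For trnD, the fragment 1 to 36 was 3561 ± 172 RPM in flower, 401 ± 43.2 RPM in silique, 37175 ± 990 RPM in leaves of the rosette, 12226 ± 146 RPM in stem leaf, with 2343 ± 173 RPM in stem. With a base more, 1 to 37 was 3503 ± 52.3 RPM in flower, 3785 ± 340 RPM in silique, 10045 ± 207 RPM in leaves of the rosette, 12287 ± 339 RPM in stem leaf, with 6410 ± 143 RPM in stem. The shorter of the pair led in rosette leaf, the longer in silique and stem, and their libraries overlapped in flower and stem leaf. In silique 1 to 36 was 92.8-fold below rosette leaf and 1 to 37 was 2.65-fold below it. Both were lower in flower and silique, by -3.10 on the log2 scale (SE 0.0484, limma adjusted p = 2.12e-11) and by -1.35 (SE 0.0353, adjusted p = 6.74e-10). A 17-base fragment, 1 to 17, was 2534 RPM in flower, 1928 RPM in silique, 3438 RPM in leaves of the rosette, 4541 RPM in stem leaf, with 1955 RPM in stem. The most abundant 3′ fragment of trnD, 42 to 77, was listed at 0 RPM in both silique libraries and averaged 39.4 ± 31.5 RPM in rosette leaf, its highest tissue (limma adjusted p = 0.0692 for flower and silique against the others).

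Of the listed fragments, trnE had 1 higher and 8 lower in flower and silique, trnY 1 and 13, and trnD 1 and 15, beside 18.9% of all 5808 tested fragments (9.95% higher, 8.92% lower). Among the 5 tissues 18 of 37, 22 of 36 and 24 of 30 differed, beside 33.2% of all fragments.

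**Figure D2:**
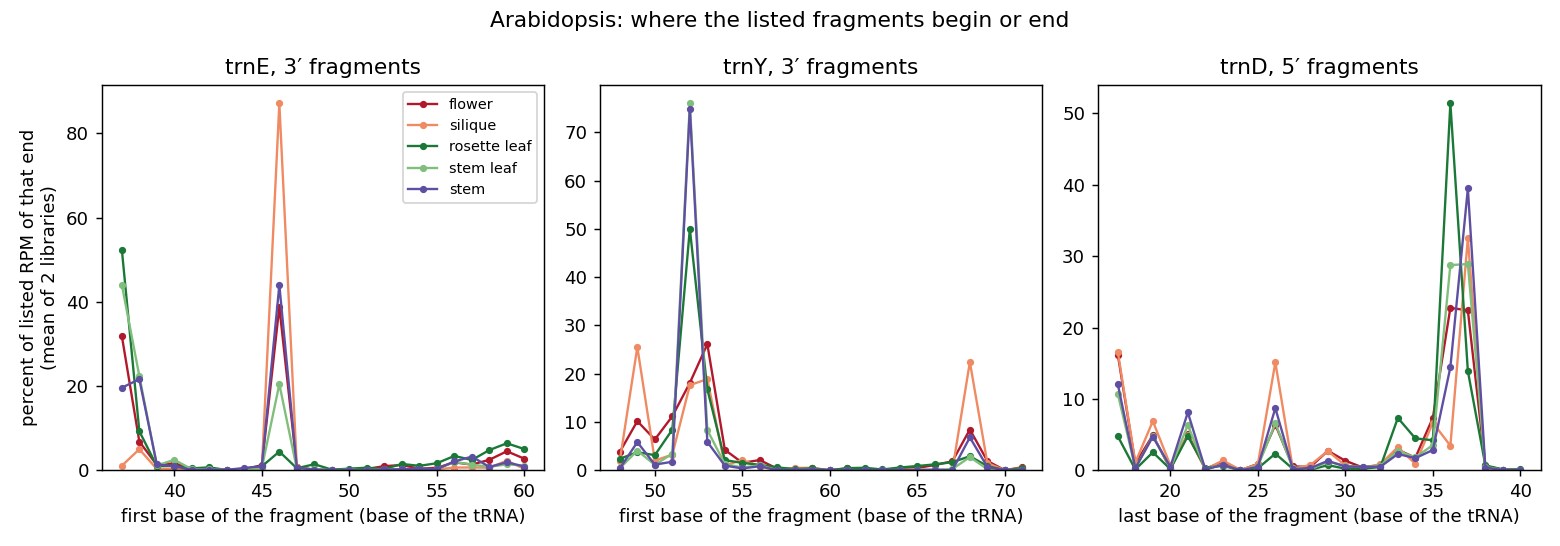
Percent of listed RPM by first base of the 3′ fragments of trnE and trnY and by last base of the 5′ fragments of trnD, in 5 Arabidopsis tissues (lines, mean of 2 libraries). Start 46 of trnE holds 87.1% in silique and 4.43% in rosette leaf, and end 36 of trnD holds 3.44% in silique and 51.4% in rosette leaf.

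No 5′ fragment of Arabidopsis trnE or trnY was listed without mismatch. Fragments with a mismatch were looked for after the values were seen. Among them, trnE 5′ fragments carried G17A (6 fragments, of which 1 to 37 averaged 40.6 RPM) or C6T (3 fragments, of which 1 to 37 averaged 6.22 RPM), the latter being the base of rice trnE. The most abundant 5′ fragment of trnY, 1 to 36, carried G27T (147 RPM) or G27A (38.6 RPM). In rice the same stretch of trnY, 1 to 36, was listed without mismatch.

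In rice the members were higher in shoot and panicle than in root at the level of fragments. Within an organ their tRF totals did not always move together. After salt in root trnY was lower while trnE and trnD were higher. By mean tRNA signal trnD ranked 4 of 258 tRNAs with signal, trnE 10 and trnY 56. By tRF totals trnY ranked 3 of 294 and was the highest plastid tRNA, while trnD ranked 14 and trnE 26 (3 and 4 among plastid tRNAs). The tRF total of trnD needs care, since all 24 of its listed fragments also occur in os_tR50, os_tR52 or os_tR59. The listed trnD fragments summed to 270% to 312% of its tRF total, and the tRF totals of os_tR52 and os_tR59 were 84.8% to 102% of it while their tRNA signal was at most 75.7 RPM. Fragments of these tRNAs cannot be told apart. In control shoot the listed trnD fragments summed to 10574 RPM, against tRF totals of 3613 RPM for trnD and 7851 RPM for trnY. The trnD rank and its share of the plastid fragments thus depend on how shared reads were assigned, which was not tested. All 41 trnE fragments and 22 of 37 trnY fragments occurred in no other tRNA identifier.

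Fragments of trnE totalled 427 and 459 RPM in cold-treated root, 208 and 201 RPM in salt-treated root, 172 and 172 RPM in control root, 1039 and 1116 RPM in panicle, 3001 and 2981 RPM in cold-treated shoot, with 2342 and 2486 RPM in salt-treated and 2863 and 2808 RPM in control shoot. Those of trnY totalled 616 and 602, 331 and 326, and 484 and 489 RPM in the same order of roots, 4163 and 4025 RPM in panicle, and 9136 and 8785, 4605 and 4523, and 8000 and 7702 RPM in the shoots. Those of trnD totalled 443 and 434, 172 and 163, and 128 and 142 RPM in the roots, 3075 and 3011 RPM in panicle, and 3903 and 3842, 4019 and 4074, and 3659 and 3567 RPM in the shoots. Every root library lay below every shoot and panicle library for each member.

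The tRNA signal of trnE was 3740 and 4160 RPM in cold-treated root, 1753 and 1588 RPM in salt-treated root, 1004 and 1004 RPM in control root, 1712 and 1847 RPM in panicle, 4876 and 5449 RPM in cold-treated shoot, with 4728 and 5159 RPM in salt-treated and 3591 and 3623 RPM in control shoot. In RPM cold-treated root lay above control shoot, but as a share of the table total it held 3.33%, against 7.71% in control shoot. In RPM cold-treated and salt-treated shoot overlapped, and salt-treated root overlapped panicle. For trnD the signal was 2450 and 2431, 1743 and 2030, and 922 and 1073 RPM in the roots in the same order, 12239 and 12299 RPM in panicle, and 7065 and 7025, 5100 and 5186, and 3877 and 3918 RPM in the shoots, so panicle was highest in RPM without overlap. As a share of the table total trnD took 6.76% in panicle, below the 9.62% of cold-treated, 11.3% of salt-treated and 8.33% of control shoot. For trnY it was 243 and 390, 188 and 261, and 127 and 99.7 RPM in the roots, 852 and 901 RPM in panicle, and 807 and 929, 618 and 804, and 694 and 770 RPM in the shoots, and panicle overlapped cold-treated shoot, as salt-treated overlapped control shoot and cold-treated overlapped salt-treated root.

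**Figure D3:**
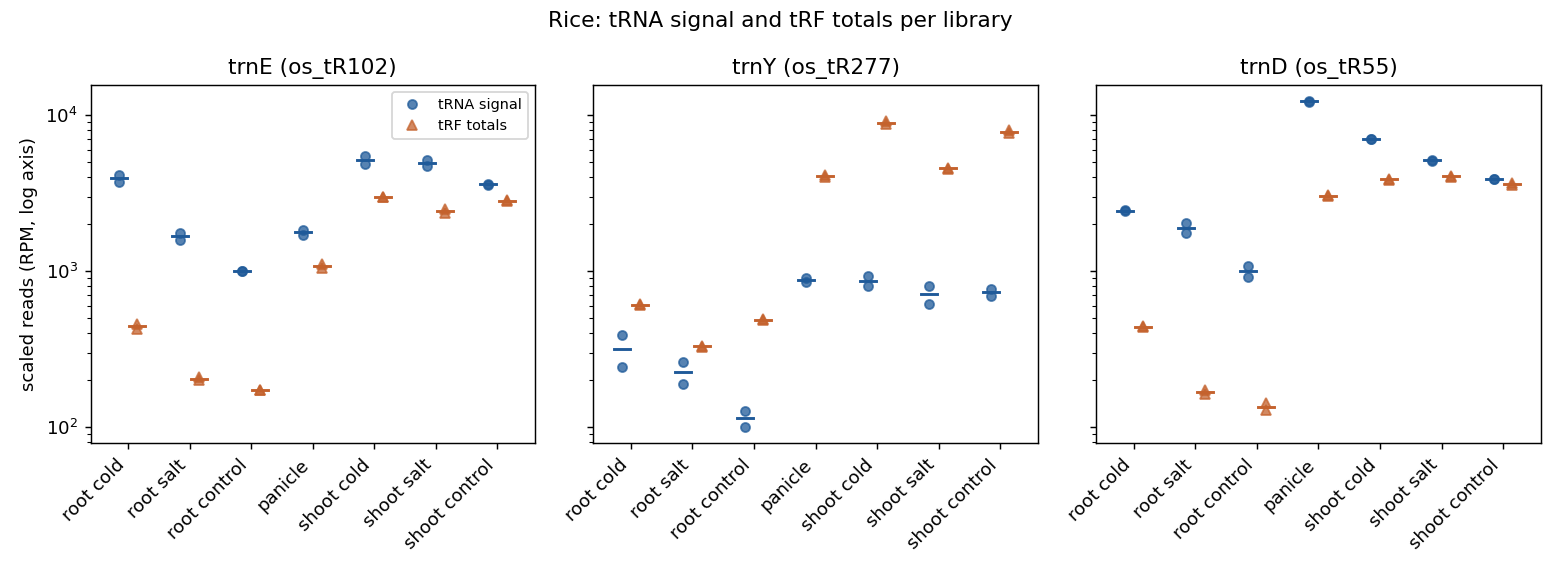
Scaled reads (RPM, log axis) of trnE, trnY and trnD in each rice library, with tRNA signal as circles, tRF totals as triangles and the mean of the 2 libraries as a bar. Root libraries hold 128 to 616 RPM of fragments of each member and shoot libraries 2342 to 9136 RPM.

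Control root lay below control shoot for each member at both levels. The trnY tRNA signal of control root rested on only 25 and 29 reads. The tRNA signal was 3.59-fold lower in root for trnE, 6.46-fold for trnY and 3.91-fold for trnD, with log2 folds of -1.84 (SE 0.0884, limma adjusted p = 1.18e-11), -2.69 (SE 0.223, adjusted p = 1.31e-08) and -1.97 (SE 0.0838, adjusted p = 2.87e-12). As shares of the table total the log2 folds were -3.78, -4.61 and -3.90. All 3 were lower, beside 15.2% of all tRNAs (74.2% called in either direction), whose median was 2.12 in RPM and 0.45 as shares, with 144 higher and 37 lower in RPM and 86 and 64 as shares. The tRF totals were 16.5-fold, 16.1-fold and 26.8-fold lower in root (log2 folds -4.04, -4.01 and -4.73, with limma adjusted p at most 1.51e-22), beside 39.7% of all tRNAs called lower (82.4% in either direction). Of the other plastid tRNAs, 15 of 20 tested were lower in tRNA signal and 20 of 21 in tRF totals, with medians of -1.89 and -3.54.

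Within the plastid fragments, trnY took 17.04% in the 6 root libraries and 25.6% in the 6 shoot libraries (exact permutation over 924 splits, two-sided, adjusted p = 0.00974), and trnD 8.37% and 14.4% (adjusted p = 0.0244). The trnE share was 9.49% and 10.1% (exact permutation, adjusted p = 0.537). The trnD share uses its tRF total, which lies below the sum of its listed fragments. In tRNA signal the trnY share was 2.22% in root and 3.11% in shoot (exact permutation, adjusted p = 0.0244), the trnE share 21.4% and 18.6% (adjusted p = 0.419) and the trnD share 18.4% and 21.4% (adjusted p = 0.161). The splits did not keep treatments together. They took the 6 libraries of an organ as independent, although these came from control, cold and salt groups of 2 libraries each. The p-values do not allow for that grouping and may be too small. Without plastid tRNAs that also have a mitochondrial locus, an alternative chosen after seeing the data, none of these 3 calls held (adjusted p = 0.117 for both fragment shares and 0.0584 for the trnY tRNA signal, exact permutation).

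The ratio of tRF total to tRNA signal was lower in control root than in control shoot for trnE (log2 difference -2.19, SE 0.110, limma adjusted p = 2.65e-07), trnY (-1.32, SE 0.307, adjusted p = 0.00306) and trnD (-2.77, SE 0.122, adjusted p = 1.55e-07). The median over 181 tested tRNAs was -2.17 in RPM and -0.39 as shares, and 79% were called (78.5% lower, 0.552% higher). As shares of the table totals the differences were -0.35, 0.53 and -0.93, with 29 tRNAs higher and 49 lower against 1 and 142 in RPM, so the trnY direction depended on the scaling.

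Panicle differed from control shoot gene by gene. In tRNA signal trnD was 3.15-fold higher (log2 fold 1.65, SE 0.0838, limma adjusted p = 3.08e-11), trnE 2.03-fold lower (-1.02, SE 0.0884, adjusted p = 2.61e-08), and trnY had a log2 fold of 0.26 (SE 0.223, adjusted p = 0.311). As shares of the table total the log2 folds were -0.30 for trnD, -2.97 for trnE and -1.69 for trnY, all called lower. The counts of 1 higher and 1 lower stood beside 65.6% and 2.46% of all tRNAs (68% in either direction), with a median of 2.37 in RPM and 0.61 as shares, and 160 higher and 6 lower in RPM against 77 and 38 as shares. Within the plastid tRNA signal trnD took 34.8 ± 1.01% in panicle and 16.7 ± 0.382% in control shoot, and trnE 5.04 ± 0.108% and 15.5 ± 0.370%. In tRF totals all 3 were lower in panicle, with log2 folds of -1.40 for trnE, -0.94 for trnY and -0.25 for trnD (limma adjusted p at most 9.3e-05), beside 26.1% of tRNAs called lower (76.8% in either direction, median 0.33 in RPM and 0.11 as shares).

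After cold, which was given in continuous light, the 3 members were higher in root at both levels. The trnY tRNA signal of cold-treated root rested on 119 and 277 reads. Against control root, the tRNA signal in cold-treated root was 3.93-fold higher for trnE (log2 fold 1.97, SE 0.0884, limma adjusted p = 1.04e-10), 2.79-fold for trnY (1.44, SE 0.223, adjusted p = 9.42e-05) and 2.45-fold for trnD (1.29, SE 0.0838, adjusted p = 1.18e-08). As shares of the table total the log2 folds were 2.57, 2.03 and 1.89. All 3 were called higher beside 11.1% of all tRNAs (35.2% in either direction), whose median log2 fold was -0.29 in RPM and 0.17 as shares, with 27 higher and 59 lower in RPM and 46 and 13 as shares. The tRF totals were higher by 1.36, 0.32 and 1.70 on the log2 scale (limma adjusted p at most 2.16e-07), beside 26.1% of tRNAs called higher (55.5% in either direction, median 0.00 in RPM and 0.19 as shares, with 71 higher and 80 lower in RPM and 106 and 51 as shares). Of the other plastid tRNAs 10 of 20 tested rose and 1 fell in tRNA signal (median 0.83), and 16 of 21 rose and 1 fell in tRF totals (median 0.66). The plastid share of the tRNA signal was 11.1% in cold-treated root and 3.43% in control root, and within it the 3 genes together took 50.8 ± 1.04% and 34.5 ± 0.825%. With 2 libraries a group an exact permutation of a share within an organ has 6 arrangements and a smallest p of 0.333, so these shares were not tested.

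In shoot the cold effect was smaller. The tRNA signal of trnD was higher by 0.85 on the log2 scale (SE 0.0838, limma adjusted p = 6.06e-07) and that of trnE by 0.52 (SE 0.0884, adjusted p = 0.000202), and trnY was at 0.24 (SE 0.223, adjusted p = 0.443). As shares of the table total these were 0.21 for trnD (still called), -0.13 for trnE and -0.40 for trnY. Beside these 2 of 3 members, 36.5% of all tRNAs were called higher (38.9% in either direction, median 0.68 in RPM and 0.10 as shares, with 89 higher and 6 lower in RPM and 41 and 21 as shares). In tRF totals trnY was higher (0.19, SE 0.0347, limma adjusted p = 0.000143), a call lost as a share of the table total at 0.00, while trnE was at 0.08 (adjusted p = 0.208) and trnD at 0.10 (adjusted p = 0.0798). That was 1 of 3 members beside 31.2% of tRNAs called higher (50.4% in either direction, median 0.10 in RPM and -0.08 as shares, with 85 higher and 52 lower in RPM and 56 and 66 as shares). The uncalled trnE and trnD totals turned with the scale. As shares they were 0.926-fold and 0.941-fold of control shoot, against 1.05-fold and 1.07-fold in RPM. Without either control root library the trnD call was gained (limma adjusted p = 0.0385 and 0.0393).

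The difference between organs was tested directly. The cold effect in root exceeded that in shoot in tRNA signal by 1.46 for trnE (SE 0.125, limma adjusted p = 1.03e-07), 1.20 for trnY (SE 0.316, adjusted p = 0.00569) and 0.44 for trnD (SE 0.119, adjusted p = 0.00647), or by 2.70, 2.43 and 1.68 as shares of the table total, beside 43.4% of tRNAs called (6.97% above and 36.5% below 0, median -1.08 in RPM and 0.01 as shares). The split was 17 above and 89 below 0 in RPM and 37 and 30 as shares. In tRF totals it did so by 1.28 for trnE (SE 0.0687, limma adjusted p = 1.25e-11) and 1.595 for trnD (SE 0.0652, adjusted p = 2.48e-13), beside 60.3% of tRNAs called (24.3% above and 36% below 0, median -0.16 in RPM and 0.21 as shares), with 66 above and 98 below 0 in RPM and 91 and 54 as shares. The trnY difference was 0.13 (SE 0.0491, limma adjusted p = 0.0256), and it was lost without cold-treated root library 1 (adjusted p = 0.0852), control root library 1 (0.0502), cold-treated shoot library 2 (0.114) or control shoot library 1 (0.106).

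After salt in root trnE and trnD were higher at both levels, and trnY was higher in tRNA signal and lower in tRF totals. The trnY tRNA signal rested on 36 and 74 reads in salt-treated root and on 25 and 29 in control root. In salt-treated root against control root the tRNA signal was higher for trnE (log2 fold 0.73, SE 0.0884, limma adjusted p = 2.92e-05), trnY (0.97, SE 0.223, adjusted p = 0.00326) and trnD (0.92, SE 0.0838, adjusted p = 2.9e-06). The trnY call was lost without salt-treated root library 2 (limma adjusted p = 0.0507). These 3 of 3 stood beside 14.8% of tRNAs called higher (12.3% lower and 27% in either direction, with 36 higher and 30 lower in RPM and 47 and 22 as shares). In tRF totals trnE (0.25, limma adjusted p = 0.000238) and trnD (0.31, adjusted p = 1.37e-05) were higher and trnY was lower (-0.57, adjusted p = 8.08e-11), beside 21% of tRNAs higher and 35.7% lower (56.6% called). Of the other plastid tRNAs 7 rose and 2 fell in tRNA signal, and 3 rose and 11 fell in tRF totals.

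In salt-treated shoot against control shoot the tRNA signal of trnE (log2 fold 0.45, SE 0.0884, limma adjusted p = 0.00104) and trnD (0.40, SE 0.0838, adjusted p = 0.00197) was higher, and trnY was at -0.05 (SE 0.223, adjusted p = 1), beside 13.5% of tRNAs called higher (26.6% in either direction). Of the other plastid tRNAs none rose and 8 of 20 tested fell. In tRF totals trnY was 1.72-fold lower (-0.78, SE 0.0347, limma adjusted p = 3.23e-13) and trnE 1.17-fold lower (-0.23, SE 0.0486, adjusted p = 0.000359). The trnD total was at 0.16 (SE 0.0461, adjusted p = 0.00486) in RPM and at -0.18 as a share of the table total. Beside them 40.1% of tRNAs were called higher and 21.7% lower (61.8% called, median 0.18 in RPM and -0.16 as shares), with 109 higher and 59 lower in RPM and 79 and 106 as shares, and 13 of 21 other plastid tRNAs fell and none rose.

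The salt effect in root exceeded that in shoot in tRNA signal for trnY (1.03, SE 0.316, limma adjusted p = 0.0254) and trnD (0.52, SE 0.119, adjusted p = 0.00388), and trnE was at 0.28 (SE 0.125, adjusted p = 0.123), beside 24.2% of tRNAs called (12.3% above and 11.9% below 0, median 0.00 in RPM and 0.18 as shares). The split was 30 above and 29 below 0 in RPM and 39 and 25 as shares, and as a share of the table total trnE was called at 0.43 (limma adjusted p = 0.00438). The trnY call was lost without salt-treated root library 2 (limma adjusted p = 0.103), control root library 2 (0.102), salt-treated shoot library 1 (0.102) or control shoot library 1 (0.0601) or 2 (0.0951). In tRF totals it did so for trnE (0.48, SE 0.0687, limma adjusted p = 6.14e-06) and trnY (0.22, SE 0.0491, adjusted p = 0.000867), with trnD at 0.15 (SE 0.0652, adjusted p = 0.0605), beside 63.2% of tRNAs called (16.5% above and 46.7% below 0, median -0.37 in RPM and -0.01 as shares, with 45 above and 127 below 0 in RPM and 79 and 95 as shares). The trnD call was gained without salt-treated root library 2 (limma adjusted p = 0.0368) or control root library 2 (0.00525), and as a share of the table total at 0.53.

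**Figure D4:**
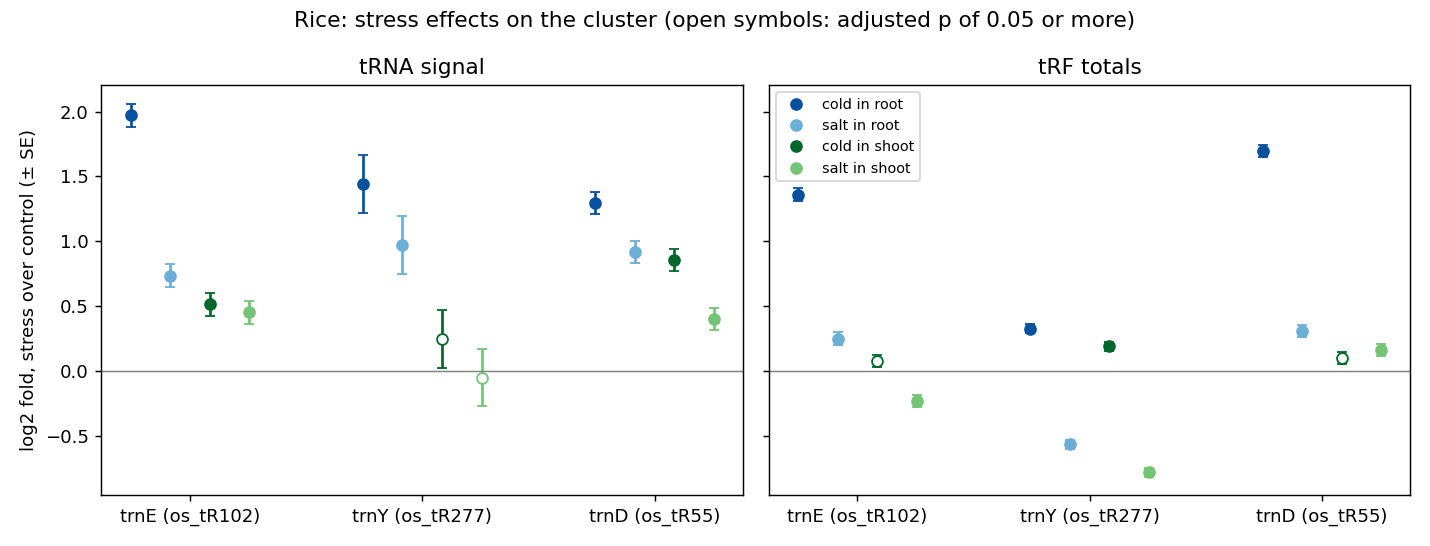
Log2 fold of stress over control (± SE, limma) in tRNA signal and tRF totals of trnE, trnY and trnD in rice root and shoot, with open symbols where the adjusted p was 0.05 or more. Cold in root lies highest for trnE (1.97) in tRNA signal and for trnD (1.70) in tRF totals, and salt lies below 0 for trnY fragments in root (-0.57) and shoot (-0.78).

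The single fragments of rice trnD again differed by their last base. In shoot the fragment 1 to 36 was 985 and 931 RPM after cold, 2179 and 2191 RPM after salt and 822 and 843 RPM in control, and in panicle it was 2344 and 2279 RPM. The fragment 1 to 37 was 2624 and 2530 RPM after cold, 1732 and 1689 RPM after salt and 2475 and 2400 RPM in control shoot, and 2275 and 2243 RPM in panicle. In panicle against control shoot 1 to 37 had a log2 fold of -0.11 (limma adjusted p = 0.113), or -0.55 as a share of the table total, while 1 to 36 was 2.78-fold higher in panicle (log2 fold 1.47, SE 0.0803, limma adjusted p = 8.49e-11). After salt in shoot 1 to 36 was 2.62-fold higher (1.39, SE 0.0803, limma adjusted p = 2.99e-10) and 1 to 37 was 1.42-fold lower (-0.51, SE 0.0520, adjusted p = 7.17e-07). The salt effect on 1 to 36 differed between root and shoot (-1.66, SE 0.114, limma adjusted p = 5.51e-09), being 42.6 ± 4.53 RPM in salt-treated root and 51.4 ± 5.37 RPM in control root.

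The fragment 1 to 35 was 212.5 ± 13.9 RPM in cold-treated root, 85.5 ± 0.765 RPM in salt-treated root and 65.0 ± 8.97 RPM in control root, and it rose after cold in root (log2 fold 1.70, SE 0.0754, limma adjusted p = 7.97e-12). It was 2282 ± 69.1 RPM in cold-treated, 1590 ± 37.2 RPM in salt-treated and 1925 ± 15.2 RPM in control shoot, and 1170 ± 42.8 RPM in panicle.

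The fragment 1 to 33, which ends before the anticodon, was 122 and 130 RPM in cold-treated root, 57.2 and 53.7 RPM in salt-treated root and 20.6 and 18.2 RPM in control root, against 1913 and 1925, 938 and 1090, and 1666 and 1603 RPM in the shoots and 488 and 485 RPM in panicle. It rose 6.51-fold in root after cold (log2 fold 2.64, SE 0.0858, limma adjusted p = 2.12e-13) and 2.86-fold after salt (1.47, SE 0.0858, adjusted p = 4.08e-10), and it was lower after salt in shoot (-0.69, SE 0.0858, adjusted p = 7.92e-06). End 21, which was singled out after its values were seen, took 18.4 ± 0.811% of the listed 5′ reads in salt-treated shoot and 5.59 ± 0.0421% in control shoot, and 12.99 ± 0.503% in cold-treated and 5.86 ± 1.15% in control root. End 36 took 17.4 ± 0.293% in salt-treated and 7.88 ± 0.212% in control shoot, and 25.8 ± 0.396% in panicle.

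For trnE of rice both ends were listed, with 16 fragments from the 5′ end and 25 from the 3′ end. The listed fragments covered 49.6% to 76.3% of the trnE total, with 75.1% in cold-treated root, 58.0% in control root, 50.2% in cold-treated, 74.1% in salt-treated and 49.6% in control shoot. The 5′ fragments made up 70.98% of listed trnE reads in root libraries and 59.2% in shoot libraries (exact permutation, two-sided, adjusted p = 0.0896). The most abundant 5′ fragment, 1 to 37, ends with the anticodon and was 53.2 ± 0.565 RPM in cold-treated root, 10.05 ± 4.48 RPM in salt-treated root and 16.5 ± 2.02 RPM in control root. It was 247.6 ± 1.20 RPM in cold-treated, 288.6 ± 0.632 RPM in salt-treated and 189 ± 19.99 RPM in control shoot. After cold in root it was higher (log2 fold 1.63, SE 0.203, limma adjusted p = 1.79e-05), as was the shorter 1 to 29 (1.88, SE 0.205, adjusted p = 3.88e-06), at 23.8 ± 0.732 RPM in cold-treated root and 5.76 ± 0.590 RPM in control root. In shoot the fragment 37 to 76 was 56.2 and 62.6 RPM after cold, 147 and 178 RPM after salt and 59.8 and 52.4 RPM in control, a 2.90-fold rise after salt (log2 fold 1.52, SE 0.352, limma adjusted p = 0.00311). The fragment 46 to 76 moved the other way, at 140 and 151 RPM after cold, 123 and 133 RPM after salt and 226 and 238 RPM in control shoot. It was lower after salt (-0.85, SE 0.267, limma adjusted p = 0.0216), a call lost without salt-treated shoot library 1 or either control shoot library (adjusted p from 0.0686 to 0.101). Start 37 took 28.1 ± 0.798% of the listed 3′ reads after salt in shoot and 10.4 ± 0.966% in control shoot. It took 26.6 ± 1.43% in cold-treated and 8.81 ± 5.02% in control root, and 20.9 ± 2.84% in panicle. In cold-treated root 37 to 76 was 13.4 and 16.2 RPM and in control root it was listed at 0 and 1.495 RPM (log2 fold 3.31, SE 0.352, limma adjusted p = 2.99e-06).

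The main trnY fragment of rice was 53 to 87, a base shorter than the main one of Arabidopsis. It was 219 and 211 RPM in cold-treated root, 99.2 and 103 RPM in salt-treated root and 210 and 222 RPM in control root, and 4334 and 4230, 1397 and 1295, and 3320 and 3201 RPM in the shoots. In root its means were close, at 214.7 RPM after cold and 215.9 RPM in control. After salt it was 2.42-fold lower in shoot (log2 fold -1.28, SE 0.0507, limma adjusted p = 1.41e-12) and 2.14-fold lower in root (-1.09, SE 0.0507, adjusted p = 1.99e-11). The difference between the organs was 0.19 (SE 0.0717, limma adjusted p = 0.0844), which was called as a share of the table total (0.51) and without salt-treated shoot library 1 (0.24). The fragment 52 to 87 was 1489 ± 67.5 RPM in cold-treated, 775.5 ± 24.8 RPM in salt-treated and 1431 ± 24.5 RPM in control shoot, and it too was lower after salt in shoot (-0.88, SE 0.0781, limma adjusted p = 1.14e-07), while in root it had 52.0 ± 1.12 RPM after salt and 52.7 ± 3.16 RPM in control (-0.02, SE 0.0781, adjusted p = 0.956). For 52 to 87 the salt effect differed between the organs (root minus shoot 0.87, SE 0.110, limma adjusted p = 1.93e-05). The fragment 51 to 87 was 707 ± 44.7 RPM in cold-treated, 424 ± 24.98 RPM in salt-treated and 517 ± 26.04 RPM in control shoot, and 48 to 87 averaged at most 54.1 RPM in any group. Start 53 took 67.2 ± 1.21% of listed trnY 3′ reads in control root, 59.4 ± 0.339% in panicle, and 57.7 ± 0.529% in cold-treated, 39.7 ± 1.56% in salt-treated and 51.9 ± 0.296% in control shoot. The 5′ fragment 1 to 36 was 27.1 and 32.3 RPM in cold-treated root and 12.7 and 12.4 RPM in control root (log2 fold 1.18, SE 0.132, limma adjusted p = 5.06e-06).

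**Figure D5:**
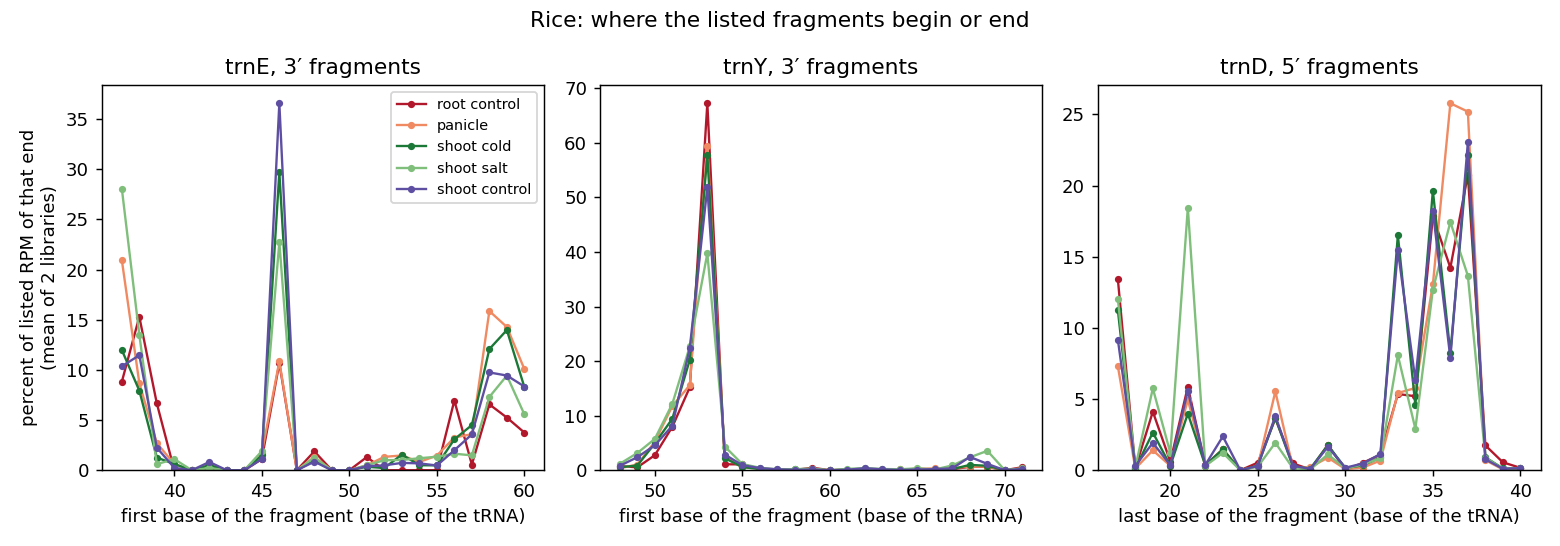
Percent of listed RPM by first base of the 3′ fragments of trnE and trnY and by last base of the 5′ fragments of trnD, in 5 of the 7 rice groups (lines, mean of 2 libraries). Among the 5 groups drawn, salt-treated shoot is highest at trnE start 37 (28.1%, with panicle at 20.9%) and trnD end 21 (18.4%), and lowest at trnY start 53 (39.7%).

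Counted over all listed fragments, 34 of 41 of trnE, 35 of 37 of trnY and 23 of 24 of trnD were lower in control root than in control shoot, beside 27.5% of all 2794 fragments (49.5% in either direction), and none was higher. Cold in root raised 14, 10 and 15 and lowered none, beside 5.87% called higher (9.38% in either direction, with 164 higher and 98 lower in RPM and 219 and 76 as shares). Salt in shoot raised 8 and lowered 6 of trnE, raised 2 and lowered 6 of trnY, and raised 5 and lowered 6 of trnD, beside 17.4% higher and 13.8% lower (31.2% called, with 487 and 386 in RPM and 378 and 489 as shares). In panicle 11, 20 and 11 were lower and 1 of each member was higher. Beside them 9.77% of all fragments were lower and 25.7% higher (35.5% in either direction, with 719 higher and 273 lower in RPM and 450 and 392 as shares). As shares 20, 22 and 16 of the members' fragments were lower in panicle and 1, 0 and 1 higher.

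The tRNAs whose pattern over groups was most like a member, among those averaging 10 RPM or more, were named as a description, by Pearson's r of mean log2(RPM + 1). Over the 5 Arabidopsis tissues the tRNA signal of trnE was closest to nuclear Arg-TCT (at_tR26, r = 0.965) and mitochondrial Trp-CCA (at_tR205, 0.963). That of trnY was closest to plastid Cys-GCA (at_tR61, r = 0.935) and Met-CAT (at_tR135, 0.919), and that of trnD to plastid Gly-GCC (at_tR90, 0.755) and Ser-GGA (at_tR182, 0.649). Between the members r was -0.63 for trnE with trnY, 0.38 for trnE with trnD and -0.40 for trnY with trnD. For tRF totals trnD was closest to plastid Gly-TCC (at_tR93, r = 0.996) and Gly-GCC (at_tR90, 0.984), and trnY to plastid Met-CAT (at_tR102, 0.965) and Ser-TGA (at_tR188, 0.956). For trnE the nearest were nuclear, Pro-TGG (at_tR155, r = 0.925) and Arg-CCT (at_tR23, 0.879). Between trnY and trnD r was 0.86.

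Over the 7 rice groups the tRNA signal of trnE was closest to Arg-ACG (os_tR12, r = 0.877) and nuclear Leu-CAA (os_tR151, 0.824), that of trnY to Met-CAT (os_tR178, 0.992) and nuclear Pro-AGG (os_tR205, 0.985), and that of trnD to nuclear Asp-GTC (os_tR54, 0.989) and Ser-GGA (os_tR243, 0.957). For tRF totals trnE was closest to nuclear Arg-ACG (os_tR18, r = 0.998) and Gly-GCC (os_tR116, 0.995), and trnY to Leu-TAG (os_tR158, 0.993) and nuclear Pro-TGG (os_tR220, 0.991). For trnD the nearest were os_tR59 and os_tR52 (r = 0.9999 for both), whose fragments it shares. Between the members r was 0.969 to 0.974 for tRF totals, and 0.50 to 0.94 for tRNA signal. All of these share libraries, depth and, in rice, the contrast between root and shoot. Nuclear means here that all listed loci of a tRNA are nuclear. Likeness of its whole sequence to a plastid tRNA was not tested.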

How the data were processed

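Small RNA libraries were made from total RNA after a tRF pretreatment kit, per the labels' protocols, and the submitters' processing notes name cutadapt (version not given) and the build TAIR10. The deposited tables hold log2 values of scaled reads (RPM) per tRNA, per tRNA summed over fragments, and per fragment. Per the file headers 1 was added before the log2, but the tRNA and tRF tables of the authors fit an offset of 0.5 and the fragment table an offset of 1. With these offsets 100% of values came out as whole reads (within 0.05). Reads were scaled by the authors before deposit, so tables summed to different totals.

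Values were turned back to RPM. Differences were fitted with limma 3.58.1 (R 4.3.3, trend) on log2(RPM + 1), for each species and level apart, over features averaging 1 RPM or more. Rows that repeated the values of an earlier row were left out, except the members. Each feature had its own spread over all groups of its species, moderated by limma. Calls used a Benjamini-Hochberg adjusted p under 0.05. The unit in the deposited tables is log2 and not counts, so no count model was used. The ratio needed 10 RPM at both levels. Shares were tested by exact permutation, in families of 7 (Arabidopsis) and 9 (rice). Alternatives were shares of the table total, a pseudocount of 0.5, no filter, a replicate block and leaving out each library. The steps were tested on simulated data with Python 3.11.15.

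Fragments were matched to the members without mismatch. The text names the 3 most abundant fragments of each member and the most abundant of each fragment class averaging 10 RPM or more, and other fragments only where it says so. It also names the 2 tRNAs nearest to each member by Pearson's r, the most abundant nuclear tRNA of the same anticodon and the 2 most abundant other plastid tRNAs of each species. The members, lists and fragments were chosen with earlier results of these data known. Replicates differed by more than sampling noise (chi-square per degree of freedom 1.82 to 3.72), and the second library of each pair held 1.48 to 1.65 times the reads of the first. Same-numbered libraries deviated together in the fragment tables (all 10 Arabidopsis pairs and all 21 rice pairs of groups correlated above 0.1) and less in the tRNA table (5 of 10 and 3 of 21) and the tRF table (4 of 10 and 3 of 21), and nothing in the labels ties the numbers. Intervals were not computed, since 2 libraries a group limit the precision.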

Additional observations from a re-analysis of the deposited data

Results flagged for a closer look

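The stress effects on the 3 rice members differed between root and shoot by the interaction term of the limma fit, and these differences are listed because they passed an adjusted p of 0.05. For cold, root minus shoot was 1.46 (trnE), 1.20 (trnY) and 0.44 (trnD) on the log2 scale in tRNA signal, and 1.28 (trnE), 0.13 (trnY) and 1.595 (trnD) in tRF totals. For salt it was 1.03 (trnY) and 0.52 (trnD) in tRNA signal, and 0.48 (trnE) and 0.22 (trnY) in tRF totals. The same fit called the cold difference in 43.4% of all tested tRNAs in tRNA signal and 60.3% in tRF totals, and the salt difference in 24.2% and 63.2%. The plastid part of the tRNA signal moved with the cold contrast, at 11.1% in cold-treated root against 3.43% in control root and 42.0% in cold-treated shoot against 49.8% in control shoot, and its part in these differences was not tested.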

How the results depend on the processing

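As shares of the table total 6 member results that were called on either scale turned direction. In tRNA signal these were at_tR48 in flower and silique (-0.45), os_tR277 (-1.69) and os_tR55 (-0.30) in panicle, and os_tR102 after cold in shoot (-0.13). The others were the tRF total of os_tR55 after salt in shoot (-0.18) and the root to shoot ratio of os_tR277 (0.53). Outside that list, os_tR277 tRNA signal after cold in shoot was 1.19-fold of control in RPM and 0.758-fold as a share. The tRF totals of os_tR102 and os_tR55 after cold in shoot were 1.05-fold and 1.07-fold in RPM and 0.926-fold and 0.941-fold as shares. On that scale the tRNAs called fell to 62 for cold in shoot, against 95 in RPM, to 67 for the cold difference between organs, against 106, and to 78 for the root to shoot ratio, against 143. Without plastid tRNAs that have a mitochondrial locus, chosen after seeing the data, the root minus shoot share was -0.80 points (os_tR277, tRNA signal), -4.83 (os_tR277, tRF totals) and -4.94 (os_tR55, tRF totals), and these calls were lost. The cause was not tested. Leaving out 1 library gave 1248 to 2011 fragments differing among the 5 tissues (1931 with all libraries), 578 to 1140 in flower and silique (1096), 615 to 1191 in panicle (992), 261 to 636 after cold in shoot (422), 127 to 372 after cold in root (262), 574 to 984 after salt in shoot (873), 166 to 407 after salt in root (296) and 161 to 422 for the cold difference between organs (267). The share differences then ran from 1.11 to 3.98 points (os_tR102, tRNA signal), -1.17 to -0.0577 (os_tR102, tRF totals), -9.63 to -7.42 (os_tR277, tRF totals) and -6.77 to -5.28 (os_tR55, tRF totals). Among single members and fragments, leaving out a library lost 95 calls and gained 16, shares lost 9 and gained 7, and a pseudocount of 0.5 lost 2. The replicate block changed 0 of 66 member calls, and fragments differing among tissues numbered 2088 with it and 1931 without it. A strict plastid list and matching without mismatch were not run as alternatives, since the first could not be formed in rice and was the same list in Arabidopsis, and the second was the analysis itself. Depth limits the tRNA signal most, where 3 reads were worth 4.27 to 129 RPM in Arabidopsis.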

Other observations

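The nuclear and mitochondrial tRNAs give a background for the cluster. The most abundant nuclear tRNA for glutamate in Arabidopsis, at_tR77 (Glu-TTC), had a tRNA signal of 25641 ± 1063 RPM in flower, 113663 ± 278 RPM in silique, 5163 ± 183 RPM in rosette leaf, 7495 ± 231 RPM in stem leaf, with 20101 ± 807 RPM in stem, so silique was its highest tissue, as for plastid trnE. Nuclear at_tR206 (Tyr-GTA) had 2919 ± 158 RPM in flower, 1649 ± 261 RPM in silique, with 345 ± 2.16 RPM in rosette leaf. Nuclear at_tR44 (Asp-GTC) had 812 ± 127 RPM in flower, 1485 ± 89.1 RPM in silique, with 273 ± 103 RPM in rosette leaf. The most abundant other plastid tRNA, at_tR90 (Gly-GCC), had 19374 ± 1487 RPM in flower, 31031 ± 4102 RPM in silique, with 27711 ± 2353 RPM in rosette leaf, and in tRF totals it had 13326 ± 428, 10096 ± 793 and 55776 ± 51.9 RPM in the same tissues. Next to it came at_tR188 (Ser-TGA) in tRNA signal, with 16129 ± 1548 RPM in silique and then 59707 ± 1911 RPM in stem leaf, and at_tR232 (Val-TAC) in tRF totals, with 5711 ± 439 RPM in silique and then 36133 ± 406 RPM in stem leaf.

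In flower and silique against the vegetative tissues, the tRNA signal of 13 of 19 mitochondrial tRNAs was higher and of none lower (limma, adjusted p under 0.05, median log2 fold 1.95, or 10 higher and a median of 1.18 as shares). All 4 nuclear Glu-TTC tRNAs, 1 of 4 tested for Tyr-GTA and 2 of 3 tested for Asp-GTC were higher, beside 53.5% of all tRNAs. In tRF totals 6 mitochondrial tRNAs were higher and 2 lower (median 0.26), and 3 of 4 for Glu-TTC, 10 of 11 for Tyr-GTA and 3 of 4 for Asp-GTC were higher, again beside 53.5%. In rice control root against control shoot the tRF totals of 6 of 14 tested mitochondrial tRNAs were higher and 3 lower (median 0.23), and those of nuclear Glu-TTC were higher in 4 of 5 and lower in 1. For nuclear Tyr-GTA 2 were higher and 2 lower of 4, and for nuclear Asp-GTC 7 of 8 were lower and none higher, a list that holds the tRNAs sharing fragments with trnD. The percent called was 42.6% higher and 39.7% lower. After cold in root 5 of 14 mitochondrial tRNAs were lower and none higher in tRF totals (median -0.27, and 2 lower as shares of the table total), beside 29.4% of all tRNAs called lower. After salt in root 10 of 14 were lower and none higher (median -0.81), beside 35.7%.

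Of the most abundant nuclear tRNAs in rice, os_tR104 (Glu-TTC) had tRF totals of 3234 ± 82.0 RPM in cold-treated root, 4267 ± 13.2 RPM in salt-treated root and 3119 ± 77.2 RPM in control roots, against 1799 ± 165 RPM in control shoot. The tRF totals of os_tR278 (Tyr-GTA) were 224 ± 16.6 RPM in control roots, against 171 ± 16.9 RPM in control shoots. The tRNA signal of os_tR54 (Asp-GTC) was 232 ± 12.5 RPM in control root, 3535 ± 107 RPM in panicle and 958 ± 27.0 RPM in control shoot. It was also the tRNA closest to trnD in tRNA signal (r = 0.989), and likeness of their sequences was not tested. Other abundant tRNAs with a plastid locus were os_tR197 (Phe-GAA, which has a mitochondrial locus too), with tRF totals of 757 ± 26.5 RPM in control roots, against 6660 ± 127 RPM in control shoots, and os_tR243 (Ser-GGA), with 263 ± 5.76 and 2233 ± 21.9 RPM. In tRNA signal os_tR178 (Met-CAT) had 543 ± 15.2 RPM in control roots, against 2393 ± 129 RPM in control shoots.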
